A study of Mus musculus with 14 samples.

Results

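The genes described here are 10 genes of the white adipocyte, chosen by name: Adipoq, Plin1, Lipe, Pnpla2, Lpl, Fabp4, Retn, Lep, Cidec and Cfd. Their values were read from the probe sets that the platform table pairs with that 1 symbol, averaged per gene. Probe sets were found for 9 of the 10 genes (10 probe sets in all, 2 of them for Lpl and 1 for each other gene), among 22180 genes measured. Cfd was not analysed here. The NCBI Gene numbers are 11450 for Adipoq, 103968 for Plin1, 16890 for Lipe, 66853 for Pnpla2, 16956 for Lpl, 11770 for Fabp4, 57264 for Retn, 16846 for Lep and 14311 for Cidec.

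The white adipocyte stores triglyceride in 1 large lipid droplet and secretes hormones called adipokines. Perilipin 1 (Plin1) coats the droplet and Cidec helps droplets fuse. Adipose triglyceride lipase (Pnpla2) and hormone-sensitive lipase (Lipe) release the stored fatty acids, lipoprotein lipase (Lpl) brings in fatty acids from circulating lipoproteins, and Fabp4 carries them inside the cell. Adiponectin (Adipoq), leptin (Lep) and resistin (Retn) are secreted, as is the complement protease adipsin (Cfd). In the mouse the fat around the aorta holds white and brown-like adipocytes, and its secreted products reach the vessel wall.

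The 14 arrays came from male mice aged 12 weeks that had eaten a Western type diet for 4 weeks, from 8 weeks of age. All mice lacked ApoE, the apolipoprotein that clears remnant lipoproteins, so every group is on this atherosclerosis-prone background and no ApoE-sufficient mouse is part of the comparison. The ApoE/LTbR-double deficient mice also lacked the lymphotoxin beta receptor (LTbR, gene Ltbr), and their ApoE-deficient littermates, titled WT in the labels, served as controls. The labels name no promoter, Cre line or cell type for either deficiency. Aorta with its perivascular adipose tissue gave 4 double-deficient and 4 ApoE-deficient samples. CD115+ cells, the monocyte-rich fraction that binds beads against the CSF1 receptor, were taken from blood in 3 and 3 preparations, and ApoE-deficient replicates 3 and 4 were each a pool of 2 littermate samples. The labels number the CD115+ ApoE-deficient replicates 1, 3 and 4, and they do not say whether blood and aorta came from the same mice. In bulk aorta, fewer adipocytes and less RNA per adipocyte cannot be told apart.

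Each array was hybridised with RNA amplified from 1 ng, and the number of arrays limits the precision. The deposited values are differences from the probe set's own median within a tissue on a scale read as log2, so they carry no level that could be compared between genes or between aorta and blood. Array medians lay between -0.0064 and 0.0052 in aorta and between -0.0077 and 0.0040 in CD115+ cells. Ltbr, the targeted gene, stood at -0.98, -1.10, -1.29 and -0.49 in the double-deficient aortas and at 0.63, 0.49, 0.70 and 0.89 in the ApoE-deficient ones, a difference of -1.64 (SE 0.17; limma, adjusted p = 0.0679). In CD115+ cells it stood at -0.069, -0.62 and -0.44 against 0.55, 0.069 and 0.40, a difference of -0.72 (SE 0.18; limma, adjusted p = 0.976). The groups did not overlap in either tissue, but in CD115+ cells double-deficient replicate 1 and ApoE-deficient replicate 3 lay close to each other. The gene thus went against no label, and it is a weak check of the CD115+ ones.

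The windows just upstream of the transcription starts are shown for members whose values moved closely together in aorta (Plin1, Lipe and Pnpla2) and for the member with the widest spread (Lep). Each is 250 bases long, printed 5′ to 3′ on the strand of the gene and ending at the base before the start, from RefSeq on GRCm38.p6. Plin1 is at chr7:79732777-79733026, minus strand, the Lipe windows are at chr7:25395988-25396237, minus strand, and chr7:25390113-25390362, minus strand, Pnpla2 is at chr7:141454938-141455187, plus strand, and Lep is at chr6:29059971-29060220, plus strand. Both Lipe windows lie inside the span annotated to that gene, and the Plin1 window reaches in part into the span annotated to Plin1. Capitals mark matches to TTGCNNAA, a C/EBP-type motif, on either strand.
Plin1: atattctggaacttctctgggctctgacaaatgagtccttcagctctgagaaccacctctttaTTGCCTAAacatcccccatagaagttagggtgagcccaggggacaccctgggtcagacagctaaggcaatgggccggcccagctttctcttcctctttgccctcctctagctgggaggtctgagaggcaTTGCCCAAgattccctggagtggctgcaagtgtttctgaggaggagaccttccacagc
Lipe, first start site: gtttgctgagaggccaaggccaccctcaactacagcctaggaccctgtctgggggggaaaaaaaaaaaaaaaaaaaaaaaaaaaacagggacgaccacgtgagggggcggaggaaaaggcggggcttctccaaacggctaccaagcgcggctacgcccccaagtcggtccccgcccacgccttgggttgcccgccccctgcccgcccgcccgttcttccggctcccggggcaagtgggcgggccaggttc
Lipe, second start site: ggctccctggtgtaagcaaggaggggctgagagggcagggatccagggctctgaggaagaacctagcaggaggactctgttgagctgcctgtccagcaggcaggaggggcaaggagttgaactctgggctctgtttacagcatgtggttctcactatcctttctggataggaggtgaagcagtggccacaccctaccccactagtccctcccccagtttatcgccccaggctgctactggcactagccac
Pnpla2: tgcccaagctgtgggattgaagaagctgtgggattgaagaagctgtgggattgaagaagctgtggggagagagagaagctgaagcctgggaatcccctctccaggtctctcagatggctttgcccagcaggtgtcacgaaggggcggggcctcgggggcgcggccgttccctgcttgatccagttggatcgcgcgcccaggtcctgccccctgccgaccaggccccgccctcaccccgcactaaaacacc
Lep: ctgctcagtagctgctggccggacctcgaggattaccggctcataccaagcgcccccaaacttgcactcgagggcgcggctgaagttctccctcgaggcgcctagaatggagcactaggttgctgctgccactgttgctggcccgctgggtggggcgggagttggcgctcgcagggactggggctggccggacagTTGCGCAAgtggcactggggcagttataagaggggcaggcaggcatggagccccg

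Windows were found for 8 of the 10 genes, all but Lpl and Fabp4. In these windows TTGCNNAA was matched in Plin1, with first bases at -187 and -58 from the start, and in Lep at -55 on both strands. It was also matched at -198 in 1 of the 2 Cidec windows, which lies inside the span annotated to that gene. Of 32851 promoter windows of the same length, 9.56% held this motif. The nuclear receptor motif AGGTCA, held by 14% of the windows, was matched in none of these 8 genes. Nor was the PPAR-type DR1, read as 2 copies of AGGNCA with 1 free base between them, which 0.338% of the windows held. Both strands were searched, and a match to AGGTCA can be part of a DR1. A match is a description of letters and not of binding.

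In aorta with perivascular fat, none of the 9 measured genes passed the test between genotypes, and adiponectin, which adipocytes secrete, differed least among them. The lipases Lipe, Lpl and Pnpla2 had the smallest unadjusted p values of the 9 (limma), although the groups overlapped for Lpl. Each of the lipases was between 1.12 and 1.21 times as high in the double-deficient mean. With limma and Benjamini-Hochberg adjustment 0 of 9 members reached an adjusted p under 0.05, where 0.00451% of all genes did. At an unadjusted p under 0.05 the count was 2 of 9 (Lipe and Lpl), where 7.72% of all genes reached it. The difference was above 0 for 6 of 9 members, with a median of 0.16, while 52.8% of all genes had a difference above 0 and their median was 0.0083.

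**Figure D1:**
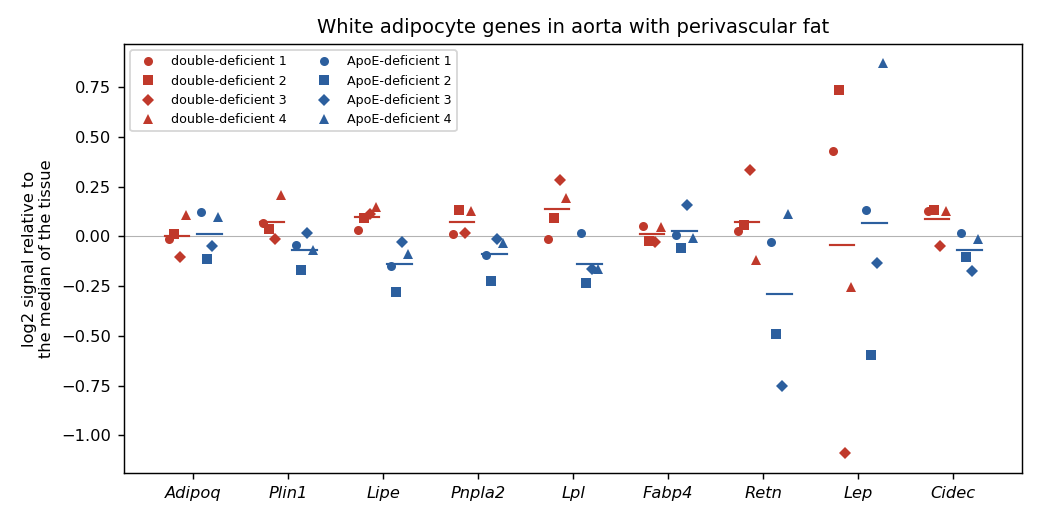
Log2 signal of each white adipocyte gene relative to its median over the 8 aortas, on the vertical axis. Points are single aortas (red double-deficient, blue ApoE-deficient, shape gives the replicate) and bars are group means. The 2 groups are apart for Lipe and Pnpla2, interleave for Adipoq and Fabp4, and spread most widely for Lep, from -1.09 to 0.87.

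Among the lipases, Lipe stood at 0.030, 0.094, 0.11 and 0.14 in double-deficient replicates 1 to 4 and at -0.15, -0.28, -0.030 and -0.089 in ApoE-deficient replicates 1 to 4. Every double-deficient aorta was above every ApoE-deficient one. The difference was 0.23 (SE 0.071, 95% interval 0.068 to 0.40; limma, adjusted p = 0.515). Pnpla2, which acts before Lipe on triglyceride, stood at 0.013, 0.13, 0.014 and 0.12 against -0.092, -0.23, -0.013 and -0.033. Here too the groups did not overlap, although the gap between the nearest aortas was small. Its difference was 0.16 (SE 0.071, 95% interval -0.0020 to 0.33; limma, adjusted p = 0.649). For groups of 4 that do not overlap, the exact two-sided permutation test gives its smallest p, 0.0286, for both genes, and adds nothing to the separation itself. Groups did not overlap with the double-deficient side higher in these 2 of 9 members, and in 2.19% of all genes; 0 of 9 lay apart the other way, and 2.11% of all genes did.

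Lpl, which frees fatty acids from lipoproteins at the vessel lumen, stood at -0.014, 0.094, 0.28 and 0.19 in the double-deficient aortas and 0.014, -0.24, -0.16 and -0.17 in the ApoE-deficient ones. The groups overlapped through replicate 1 of each, and the other 6 aortas were apart. The difference was 0.28 (SE 0.088, 95% interval 0.073 to 0.48; limma, adjusted p = 0.533). Its probe sets did not give the same picture in full. One of them ran from -0.050 to 0.26 in the double-deficient and from -0.33 to 0.050 in the ApoE-deficient aortas and overlapped. The other ran from 0.022 to 0.30 and from -0.15 to -0.022 and did not.

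The droplet proteins showed smaller shifts with overlapping groups. Plin1 stood at 0.065, 0.036, -0.016 and 0.21 against -0.044, -0.17, 0.016 and -0.071, a difference of 0.14 (SE 0.073, 95% interval -0.029 to 0.31; limma, adjusted p = 0.702). Cidec stood at 0.13, 0.13, -0.050 and 0.13 against 0.016, -0.10, -0.18 and -0.016, a difference of 0.16 (SE 0.074, 95% interval -0.016 to 0.33; limma, adjusted p = 0.664). For Cidec, 3 of the 4 double-deficient aortas were within a narrow band and replicate 3 was below them. Fabp4, the fatty acid carrier, had the narrowest range of the members, 0.21 over all 8 aortas, and a difference of -0.015 (SE 0.066, 95% interval -0.17 to 0.14; limma, adjusted p = 0.983).

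Of the adipokines, Adipoq stood at -0.013, 0.013, -0.10 and 0.11 in the double-deficient aortas and at 0.12, -0.11, -0.050 and 0.096 in the ApoE-deficient ones. The values interleaved, with the highest and the lowest aorta both ApoE-deficient. The difference was -0.013 (SE 0.080, 95% interval -0.20 to 0.17; limma, adjusted p = 0.988). Retn stood at 0.027, 0.055, 0.33 and -0.12 against -0.027, -0.49, -0.75 and 0.11. Its difference of 0.36 (SE 0.20, 95% interval -0.10 to 0.82; limma, adjusted p = 0.714) came with 2 low ApoE-deficient aortas, replicates 2 and 3. Lep stood at 0.43, 0.73, -1.09 and -0.25 against 0.13, -0.59, -0.13 and 0.87. Both genotypes held aortas far above and far below the median, and the difference was -0.11 (SE 0.45, 95% interval -1.15 to 0.92; limma, adjusted p = 0.979).

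The members differed in how much they varied between aortas, whatever the genotype. Lep ranged over 1.96 log2 units, 3.89-fold, and its SD was at the 96.7th percentile of all genes. Retn ranged over 1.08 log2 units, 2.12-fold, at the 81.1st percentile. The other 7 members had ranges of 0.21 to 0.52, under the all-gene median of 0.58, and Adipoq with 0.24 (1.18-fold) was at the 18.9th percentile. Adipoq and Fabp4 thus had a narrow range over the 8 aortas, and Lep a wide one.

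Members also differed in which others they moved with. Over the 8 aortas the Pearson r between pairs of members had a median of 0.40 and was above 0 in 31 of 36 pairs, from -0.56 (Fabp4 and Retn) to 0.94 (Lipe and Pnpla2). These values are descriptions of arrays that share their preparation and normalization, with no test. Each r between genes or lists, here and below, was taken over both genotypes without removing group means. A genotype difference can therefore enter it. Lipe and Pnpla2 had a Spearman rho of 0.93 and an r of 0.79 over the 6 aortas left without ApoE-deficient replicates 1 and 2. Plin1 had an r of 0.83 with Lipe (rho 0.81) and of 0.85 with Pnpla2 (rho 0.81), and these were 0.60 and 0.61 without double-deficient replicate 4 and ApoE-deficient replicate 2. Lpl had an r of 0.81 with Lipe, 0.68 with Pnpla2 and 0.61 with Plin1. Adipoq and Lipe had an r of 0.13. Much of the shared movement rested on 1 aorta: without ApoE-deficient replicate 2, which was lowest for 6 of 9 members (and for 16.7% of all genes), the median r was 0.099 with 21 of 36 pairs above 0.

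The genes most like Adipoq over the 8 aortas, members and unnamed gene models left out, were Vps11 (Pearson r 0.96), Zfp90 (0.95), Ncapd3 (0.94), Vnn3 (0.94) and Pramel33 (0.93). Those most like Lipe, a gene singled out after its values were seen, were Myo5a (0.99), Slc28a1 (0.98), Ctsd (0.97), Tbc1d19 (0.97) and Dlgap1 (0.97). Slc28a1 ranged over 0.17 log2 units in all. With so many genes ranked over 8 arrays, unrelated genes can also reach a high r, and the likeness was not tested. No member of the white adipocyte genes had an r with Adipoq above 0.9, as 0.0857% of all genes did.

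The other genes of fat storage and adipocyte identity gave 0 calls in aorta in each of 6 lists (limma, adjusted p under 0.05), where 0.00451% of all genes were called. Most of the lists' differences were above 0, where 52.8% of all genes had a difference above 0. Triglyceride synthesis genes were above 0 in 9 of 9 with a median of 0.26. Dgat1, which catalyses the last step of triglyceride synthesis, had a difference of 0.38 (SE 0.12) with groups that did not overlap. Groups lay apart with the double-deficient side higher in 2.19% of all genes. The acyltransferase Gpat3 had 0.29 (SE 0.14). The lipid droplet and lipolysis partners were above 0 in 11 of 13 (median 0.094). Abhd5, the activator of Pnpla2, had 0.43 (SE 0.19), and Bscl2, the droplet assembly protein seipin, had 0.32 (SE 0.17).

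Genes of lipoprotein lipase handling and fatty acid uptake were above 0 in 11 of 13 (median 0.11), with 0.52 (SE 0.14) for the lipoprotein receptor Vldlr and 0.11 (SE 0.062) for the fatty acid translocase Cd36. Adipocyte transcription factors were above 0 in 10 of 12 (median 0.14), with -0.39 (SE 0.12) for Zfp423, a preadipocyte factor, and 0.24 (SE 0.11) for the liver X receptor Nr1h3. Other adipokines were above 0 in 8 of 11 (median 0.17), with 0.44 (SE 0.14) for Sfrp5 and 0.24 (SE 0.10) for Nrg4. Adipokine receptors and insulin response genes were above 0 in 9 of 10 (median 0.25), with 0.41 (SE 0.15) for the phosphodiesterase Pde3b and 0.41 (SE 0.16) for the insulin receptor Insr. At an unadjusted p under 0.05 these lists held 0 droplet, 1 triglyceride synthesis, 1 uptake, 1 transcription factor, 2 adipokine and 3 receptor genes. Over all genes 7.72% reached it. Brown adipocyte markers, the other fat cell type of this depot, were above 0 in 6 of 10 with a median of 0.057.

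Markers of other cell types also differed in mean between the genotypes in these aortas, none with a gene past the adjusted threshold (limma). The mean of 10 measured T cell markers ran from -1.08 to -0.20 in double-deficient and from 0.048 to 1.25 in ApoE-deficient aortas, with 10 of 10 differences below 0. The T cell ranges did not overlap. For 9 B cell markers the ranges were -0.44 to -0.14 and -0.17 to 2.33, with 9 of 9 below 0. The 10 smooth muscle markers ran from -0.017 to 0.42 and from -0.24 to 0.034, with 9 of 10 differences above 0 (median 0.30), and their mean had an r of 0.73 with the members' mean over the 8 aortas. Endothelial markers were above 0 in 9 of 10 (median 0.16; r 0.70) and fibroblast markers in 8 of 10 (r 0.56), while neutrophil markers were below 0 in 9 of 10 (r -0.69). The r was -0.45 for T cell, -0.45 for B cell and -0.56 for skeletal muscle markers. Mesothelial markers had the r farthest from 0 among these marker lists, at -0.75, with 3 of 8 differences above 0. Their mean was highest in double-deficient replicate 3 (0.90) and ApoE-deficient replicate 2 (0.895). The 11 skeletal muscle markers ran from -1.26 to 1.27 and from -1.35 to 2.06, with 11 of 11 differences below 0. Since the values are centred, no marker can be said to be at 0. The part of these cell types in the differences of Lipe, Pnpla2 and Lpl was not tested. A comparison set against Adipoq on the same array was added after seeing the data. Its differences were 0.25 (SE 0.10) for Lipe, 0.18 (SE 0.097) for Pnpla2 and 0.29 (SE 0.11) for Lpl. The adjusted p values were 0.745, 0.865 and 0.714 (limma). Over the 8 aortas Adipoq had an r of 0.13, 0.34 and 0.11 with these genes. Whether Adipoq tracks the fat content of an aorta was not tested.

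In CD115+ blood cells, where adipocyte genes are not a defining product, none of the 9 members passed the test and the genotype groups overlapped for every one of them. All 9 differences were below 0, with a median of -0.12, while 44.7% of all genes had a difference above 0 and their median was -0.011. With limma 0 of 9 members reached an adjusted p under 0.05, as did 0% of all genes, and 0 of 9 reached an unadjusted p under 0.05, which 4.39% of all genes did. The groups did not overlap in 0 of 9 members; they lay apart with the double-deficient side higher in 3.93% of all genes and lower in 5.23%. With 3 against 3 preparations an exact permutation test cannot go below p = 0.1.

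**Figure D2:**
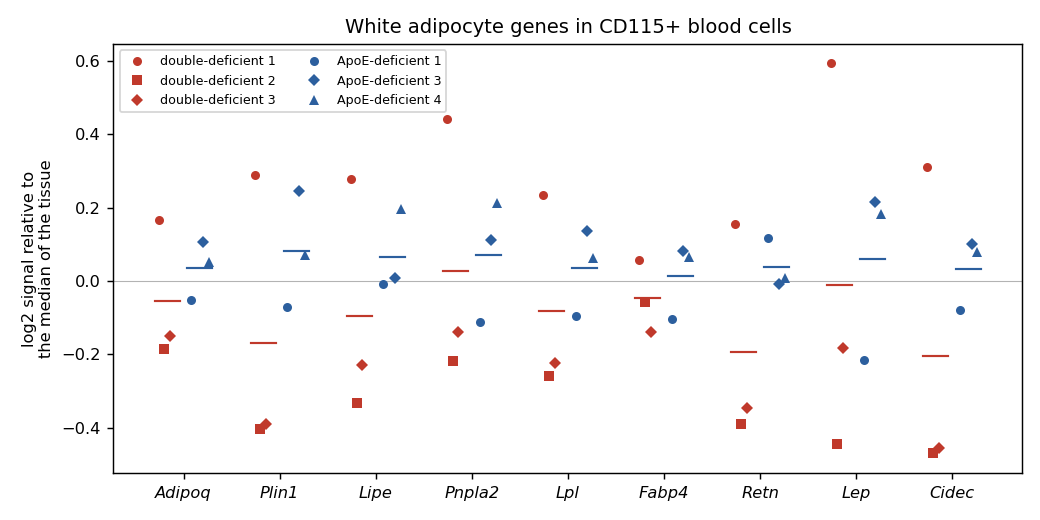
Log2 signal of each white adipocyte gene relative to its median over the 6 CD115+ preparations, on the vertical axis. Points are single preparations (red double-deficient, blue ApoE-deficient, shape gives the replicate) and bars are group means. Double-deficient replicate 1 is the highest point for 8 of 9 genes, and replicate 2 is the lowest for 8 of 9.

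The double-deficient preparations were split rather than shifted together. Plin1 stood at 0.29, -0.40 and -0.39 in double-deficient replicates 1, 2 and 3 and at -0.070, 0.25 and 0.070 in ApoE-deficient replicates 1, 3 and 4. Cidec stood at 0.31, -0.47 and -0.46 against -0.080, 0.10 and 0.080. In both droplet genes replicate 1 of the double-deficient group was the highest of all 6 and replicates 2 and 3 were the lowest. The differences were -0.25 (SE 0.21, 95% interval -0.76 to 0.26) for Plin1 and -0.24 (SE 0.22, 95% interval -0.79 to 0.31) for Cidec, both with an adjusted p of 0.976 by limma.

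The lipases had the same layout, with double-deficient replicate 1 highest and replicates 2 and 3 lowest. Lipe stood at 0.28, -0.33 and -0.23 against -0.0070, 0.0070 and 0.20, a difference of -0.16 (SE 0.17). Pnpla2 stood at 0.44, -0.22 and -0.14 against -0.11, 0.11 and 0.21, a difference of -0.043 (SE 0.19). Lpl, which macrophages also make, stood at 0.24, -0.26 and -0.22 against -0.097, 0.14 and 0.064, a difference of -0.12 (SE 0.15). The 95% intervals of these differences ran from -0.58 to 0.26, from -0.52 to 0.44 and from -0.49 to 0.25. Fabp4, also a macrophage lipid chaperone, varied least, over 0.22 log2 units, and differed by -0.062 (SE 0.080).

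Among the adipokines Adipoq stood at 0.17, -0.18 and -0.15 against -0.051, 0.11 and 0.051, a difference of -0.091 (SE 0.11, 95% interval -0.36 to 0.17). Retn stood at 0.16, -0.39 and -0.35 against 0.12, -0.0069 and 0.0069, a difference of -0.23 (SE 0.15, 95% interval -0.61 to 0.15). Lep stood at 0.59, -0.45 and -0.18 against -0.22, 0.22 and 0.18, a difference of -0.073 (SE 0.29, 95% interval -0.78 to 0.63). In each of these the double-deficient replicates 2 and 3 were below replicate 1, which was the highest preparation. In 8 of 9 members the SD was larger in the double-deficient group (n = 3 each). It was 0.40 against 0.16 for Plin1, 0.45 against 0.099 for Cidec and 0.19 against 0.080 for Adipoq. For Fabp4 it was 0.0997 against 0.103. The SD over all probe sets of an array was also larger there, at 0.19, 0.25 and 0.22 against 0.13, 0.15 and 0.14. Some ApoE-deficient preparations were pools, and the share of all genes with a larger double-deficient SD was not counted. Adjusted p values for the 9 members lay between 0.976 and 0.994 (limma).

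Double-deficient replicate 1 was highest for 8 of 9 members, where it was highest for 21.4% of all genes, and replicate 2 was lowest for 8 of 9, where it was lowest for 23.2%. Double-deficient replicates 2 and 3 were the lowest pair in 7 of 9 members and in 17.1% of all genes. The median difference of the members depended on single preparations. It was -0.041 without double-deficient replicate 2, -0.047 without double-deficient replicate 3 and, leaving out ApoE-deficient preparations, -0.19 without their replicate 1 and -0.066 when replicate 3 was dropped. Array weights, which count atypical arrays less, gave -0.25. Without double-deficient replicate 1 it was -0.35, and the members' adjusted p values reached down to 0.0930 (limma). Without the pooled ApoE-deficient replicates 3 and 4, an alternative added after seeing the data that left 1 preparation assumed to vary as the others do, the median was -0.0045.

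The 9 members moved together across the CD115+ preparations. Over the 6 preparations the Pearson r between members had a median of 0.90 and was above 0 in 36 of 36 pairs, from 0.54 to 0.9989. Adipoq and Lpl had an r of 0.9989 and Adipoq and Plin1 of 0.9889, both with a Spearman rho of 1. Without double-deficient replicates 1 and 2 these were 0.9992 and 0.9859 over 4 preparations. The r with Adipoq was above 0.9 for 6 of the 8 other members and for 4.98% of all genes. Leaving out any single preparation gave a median r between members of 0.86 to 0.96, with all 36 pairs above 0. The preparations share their amplification and normalization, and the difference between tissues in r was not tested.

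Over the 6 preparations, 8 of the 9 members had a range above the all-gene median of 0.30. Lep (1.04 log2 units) was at the 95.2nd percentile of SD among all genes, Cidec (0.78) at the 92.5th, Plin1 (0.69) at the 91.4th, and Fabp4 at the 42.4th.

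**Figure D3:**
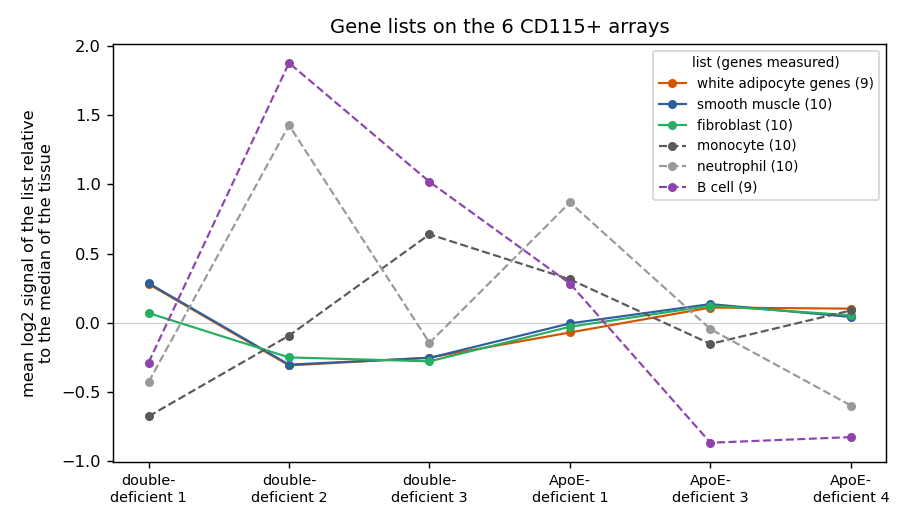
Mean log2 signal of 6 gene lists, relative to the median of the tissue, on each of the 6 CD115+ arrays along the horizontal axis; lines join the points of a list only to guide the eye. White adipocyte, smooth muscle and fibroblast genes lie together, highest in double-deficient replicate 1 (or, for fibroblast genes, ApoE-deficient replicate 3) and lowest in double-deficient replicates 2 and 3, while B cell and neutrophil lists follow other courses.

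Several marker lists, of vessel cells and of others, varied with the members across the CD115+ preparations. The mean of the 9 members was 0.28, -0.31 and -0.25 in double-deficient replicates 1 to 3 and -0.069, 0.11 and 0.10 in the ApoE-deficient preparations. The mean of 10 smooth muscle markers was 0.29, -0.30 and -0.25, then -0.0034, 0.14 and 0.043, an r of 0.98 with the members' mean. The mean of 10 fibroblast markers was 0.071, -0.25 and -0.28, then -0.028, 0.12 and 0.055, an r of 0.92. For brown adipocyte markers the r was 0.93 and for endothelial markers 0.88. Lists of other cells varied with them too: the r was 0.94 for skeletal muscle, 0.91 for macrophage, 0.86 for the 3 measured erythroid and 0.74 for mesothelial markers. All 10 smooth muscle and all 10 fibroblast genes had a difference below 0, as the 9 members did.

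Monocyte, neutrophil, platelet, T cell and B cell lists had an r below 0 with the members' mean. The mean of 10 monocyte markers was -0.67, -0.092 and 0.64, then 0.31, -0.15 and 0.091, an r of -0.68 with the members' mean. Neutrophil markers had an r of -0.69, platelet markers of -0.62, T cell markers of -0.75 and B cell markers of -0.88. B cell markers were highest, at 1.88 and 1.02, in double-deficient replicates 2 and 3, where the members were lowest. The part of these cell types in the members' differences was not tested.

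A coarse bound on level came from the rounding of the deposited values. Its step is coarser where the value before centring was 8 or more. Probe sets with the coarser step on every array of a tissue were read as having this level. The reading assumes storage at a fixed number of binary digits, and a lower value can fall on the coarser step by accident. In aorta all 10 probe sets of the members had such a level, against 14.2% of all probe sets with 1 symbol and 0.486% of 1440 probe sets of olfactory, vomeronasal and taste receptors, which neither tissue is known to use widely. In CD115+ cells 8 of the 10 probe sets did, those of Lipe and Lep excepted, against 8.79% and 1.18%. The defining adipocyte genes Adipoq, Plin1 and Cidec were thus read as 8 or more over the 6 blood cell preparations. Smooth muscle genes (Acta2, Cnn1, Myh11 and Tagln), fibroblast genes (Col1a2, Col3a1, Dcn, Dpt and Pi16) and brown adipocyte genes (Cidea, Cox7a1, Cox8b and Ucp1) had this level in CD115+ cells (Col1a2 in 1 of its 2 probe sets), as did 6 of 10 monocyte genes, Csf1r and Ccr2 among them. None of the 10 T cell and 9 B cell genes did. Signal above this bound is not a measure of expression, since probe sets differ in background.

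In CD115+ cells the 6 lists of related genes also gave 0 calls (limma), where 0% of all genes were called. Most of the lists' differences were below 0, where 44.7% of all genes had a difference above 0. The lipid droplet and lipolysis partners were above 0 in 2 of 13 (median -0.15), with -0.28 (SE 0.14) for the glycerol channel Aqp7 and -0.23 (SE 0.16) for Cidea. Triglyceride synthesis genes were above 0 in 2 of 9 (median -0.12), with -0.19 (SE 0.12) for Agpat2 and -0.26 (SE 0.17) for Dgat2. Lipoprotein lipase handling genes were above 0 in 4 of 13 (median -0.10). Among them Lmf2, related to the factor that matures Lpl, had -0.17 (SE 0.067) with groups that did not overlap. It was the only gene of these 6 lists with an unadjusted p under 0.05, which 4.39% of all genes reached. Groups lay apart with the double-deficient side lower in 5.23% of all genes.

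Transcription factors were above 0 in 2 of 12 (median -0.094). Ebf1, which B cells also express, had 0.39 (SE 0.16) with groups that did not overlap, and Nr1h3 had -0.13 (SE 0.082). Other adipokines were above 0 in 2 of 11 (median -0.10), with -0.26 (SE 0.13) for the retinol carrier Rbp4 and -0.10 (SE 0.059) for Itln1, whose groups did not overlap. Receptors and insulin response genes were above 0 in 3 of 10 (median -0.024), with 0.18 (SE 0.087) for the adiponectin receptor Adipor1 and 0.18 (SE 0.12) for the chemerin receptor Cmklr1. Over all genes, groups lay apart with the double-deficient side higher in 3.93% and lower in 5.23%. Brown adipocyte markers were above 0 in 2 of 10 (median -0.080).

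**Figure D4:**
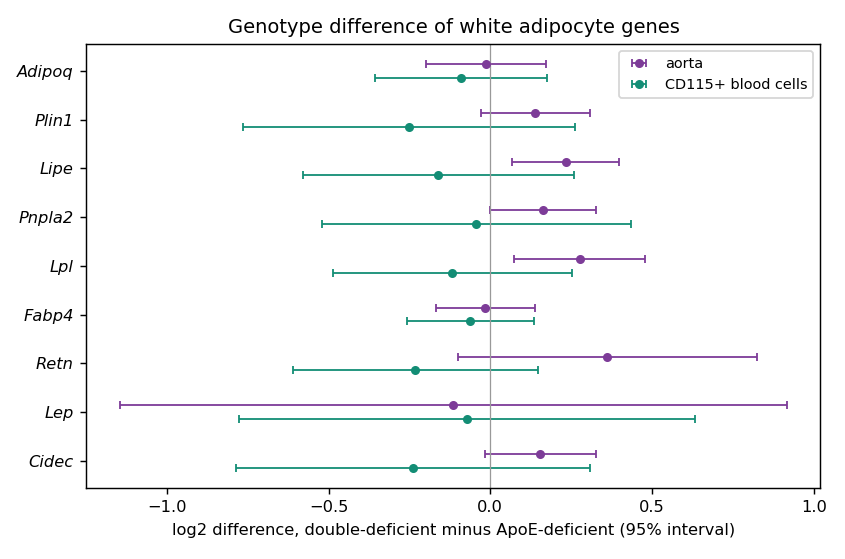
Log2 difference between double-deficient and ApoE-deficient samples for each white adipocyte gene, on the horizontal axis, in aorta (purple, 4 against 4) and CD115+ cells (green, 3 against 3), with 95% intervals from limma. The aorta intervals of Lipe (0.068 to 0.40) and Lpl (0.073 to 0.48) lie above 0 before adjustment over all genes; the other 7 aorta intervals and all 9 CD115+ intervals hold 0.

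Whether the genotype difference itself differed between aorta and blood was tested in 1 fit of the 4 groups. The aorta difference exceeded the CD115+ difference for 8 of 9 members, with a median of 0.39 against 0.019 over all genes, and 0 of 9 passed at an adjusted p under 0.05 (limma), as did 0% of all genes. At an unadjusted p under 0.05 there were 2 of 9, Lpl at 0.39 (SE 0.17; adjusted p = 0.696) and Lipe at 0.39 (SE 0.18; adjusted p = 0.703), and 6.9% of all genes. Retn had 0.59 (SE 0.28; adjusted p = 0.731), Cidec 0.39 (SE 0.22; adjusted p = 0.781) and Plin1 0.39, while Adipoq with 0.078, Fabp4 with 0.047 and Lep with -0.041 were near 0. Without CD115+ double-deficient replicate 1, 58 genes passed this test and Cidec was among them, at 0.65 (SE 0.11; limma, adjusted p = 0.0473). Without double-deficient replicate 2, Cidec had 0.26, Plin1 0.27 and Lipe 0.27, and 0.27, 0.28 and 0.33 without replicate 3, with no member past the threshold in either. All 9 CD115+ differences were below 0 with all preparations and without double-deficient replicate 1. Pnpla2 and Lep were above 0 without replicate 2 (0.080 and 0.14) and without replicate 3 (0.0405 and 0.013).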

How the data were processed

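Aorta and CD115+ samples were grouped by their titles and genotype labels. RNA was amplified and biotin-labelled for whole-transcript arrays per the labels' protocols. The authors deposited 1 table of log values, read here as log2, for 33793 probe sets on 14 arrays. Neither its log base nor its normalization and probe summary is stated in these sources. Each probe set's median within a tissue was 0 within 1e-06, so the values were centred before deposition: scale is known up to the log base, direction is that of signal, and levels are lost. The platform table gave 23521 probe sets 1 symbol, 1814 several and 8458 none. Probe sets with 1 symbol were averaged per gene (22180 genes, none filtered), and no 2 arrays held identical values.

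Genes were fitted per tissue with limma 3.58.1 (lmFit, eBayes) in R 4.3.3, with Benjamini-Hochberg adjustment over all 22180 genes, threshold 0.05 and 95% intervals. A fit of the 4 groups tested the difference between tissues. Non-overlapping groups also had an exact two-sided permutation test. The labels do not state that each sample is a separate mouse, so p-values measure the spread between these samples, which may be technical. The script was tested on simulated data. Alternatives were spread, robust fit, array weights, probe set rule, normalization, level filter, replicate block and leaving out each sample.

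Members and lists were chosen with earlier results of these data known. Named besides the members were Ltbr, the 2 genes of smallest p per list and tissue, and the 5 genes most like Adipoq; the genes most like Lipe and those named for their level were picked after their values were seen. Motifs were counted on both strands in the 250 bases before each RefSeq start (GRCm38.p6).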

Additional observations from a re-analysis of the deposited data

Results flagged for a closer look

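Cidec stood at -0.050 in double-deficient aorta replicate 3, while the other 3 double-deficient aortas lay between 0.1271 and 0.1337, a gap above Dixon's 95% critical value for 4 samples. Of 20 aorta groups looked at, this was the 1 that met the criterion, and chance gives about 5%. Lep was also lowest in that aorta, at -1.09, and Lpl and Retn were highest in it, at 0.28 and 0.33.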

How the results depend on the processing

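No member passed at an adjusted p under 0.05 within a tissue under any alternative run, and the member medians kept their sign. Without ApoE-deficient aorta replicate 3, 74 genes passed in aorta and 30 between tissues, against 1 and 0 with all samples. None of these was a member, and the adjusted p of Lipe in aorta was then 0.284 (limma). Between tissues the count of members passing ran from 0 to 1 when single samples were left out, the 1 being Cidec without CD115+ double-deficient replicate 1. Leaving out single samples moved the aorta median between 0.12 and 0.20 and the CD115+ median between -0.35 and -0.041. Some members' differences changed sign. In aorta they ran from -0.056 to 0.023 (Adipoq), from -0.042 to 0.029 (Fabp4) and from -0.37 to 0.23 (Lep). In CD115+ cells they ran from -0.38 to 0.14 (Lep) and from -0.25 to 0.080 (Pnpla2), and between tissues from -0.30 to 0.31 (Lep). Under quantile normalization Pnpla2 was 0.0018 and Lep 0.040 in CD115+ cells. Without the pooled preparations, chosen after seeing the data, Pnpla2 was 0.14, Lpl 0.014, Fabp4 0.056 and Lep 0.20 there. With array weights the CD115+ median was -0.25 and the Lep difference between tissues 0.15. With the shared replicate numbers as a replicate block, Lipe was 0.024, Pnpla2 0.15 and Lep 0.21 in CD115+ cells, with 0 members passing in either tissue and medians of 0.16 in aorta and -0.019 in CD115+ cells. The causes were not tested. The numbers were not taken as pairing: deviations of same-numbered aortas correlated at 0.17, -0.15, -0.14 and 0.064, those of CD115+ preparations at -0.47 and -0.29, and 2 of 8 aortas were closest to their own number. With only probe sets read as 8 or more from their rounding, all 9 members stayed in aorta and 7 in CD115+ cells. No detection call bounds the weak signals.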
